A study of Mus musculus with 4 samples.

Results

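The genes examined were 10 Wnt receptor genes, *Fzd1*, *Fzd2*, *Fzd4*, *Fzd5*, *Fzd6*, *Fzd7*, *Fzd8*, *Lrp5*, *Lrp6* and *Ror2*. They were chosen by name from the 45802 gene symbols of the table, and all 10 were among the 14415 genes measured in each of the 4 libraries. The libraries were made from total RNA of mouse periosteal cells, 2 from PDGFRα reporter+ and 2 from PDGFRα reporter- cells. The cells came from femurs and tibias of male Pdgfrα-mTmG mice 9 to 10 weeks old, which had received 150 mg/kg of tamoxifen daily over 5 days, and were taken 14 days after the last dose. Tamoxifen activates a Cre recombinase driven by the *Pdgfra* promoter, so that a recombined cell carries membrane GFP (reporter+), whereas any other cell keeps membrane tdTomato (reporter-). Both populations carried the same alleles, received tamoxifen, went through 1 passage in medium with bFGF at 10 ng/mL and were sorted as negative for CD31, CD45 and Ter119. Each population was pooled from 3 to 6 mice per the labels, whereas the methods of the study give another range. The reporter records Cre activity at the time of tamoxifen and not the level of *Pdgfra* at the sort, and *Pdgfra* itself had log2 values of 7.78 and 7.62 in the reporter+ and of 7.87 and 7.44 in the reporter- libraries.

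Wnt ligands are secreted glycoproteins that bind Frizzled proteins, membrane-spanning receptors with an extracellular cysteine-rich domain. Where a Frizzled and the co-receptor LRP5 or LRP6 are bound together, Dishevelled and Axin are drawn to the membrane, β-catenin is no longer degraded and TCF/LEF target genes are transcribed. ROR2, a receptor tyrosine kinase family member that also has a Frizzled-type cysteine-rich domain, binds Wnt5a and acts in planar polarity and other branches that do not use β-catenin. In bone, the β-catenin branch is known for driving osteoblast formation, and inherited changes of LRP5 alter bone mass. The comparison of the populations asks whether periosteal cells marked by the *Pdgfra* reporter differ from unmarked periosteal cells in the receptors through which they could receive these ligands.

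The table names the 4 libraries by population and by a number, 2 or 3, whereas the labels number the replicates 1 and 2. The numbers of the table are used here, and the sources used here do not tie them to cell preparations. The study sorted both populations from each of its numbered cell samples, but does not say which of those samples were sequenced. The libraries held 15423 to 15605 values each, quantile normalized on the log2 scale, with quartiles of −1.47 and 3.00 and a median of 1.48 in each. The unit under the logarithm is not given in the sources used here, so that the depth and the counting error behind a value are unknown. The libraries grouped by number. Over the genes with a value in both libraries compared, Pearson's r was 0.984 between populations at number 2 and 0.982 at number 3. Between libraries of different number it was 0.953 to 0.959. These correlations are across genes, which are not independent replicates. In bulk RNA, fewer cells of a type and less RNA per cell cannot be told apart.

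None of the 10 receptor genes passed the test between the populations, and their log2 differences, reporter+ minus reporter-, ran from −0.23 for *Fzd7* to 0.33 for *Fzd8*. Of these differences, 4 were above 0 and 6 were below 0, with a median of −0.01 beside a median of −0.0035 over all genes tested. The median size of the difference without its sign was 0.09 for the receptor genes and 0.12 for all genes. limma with Benjamini-Hochberg adjustment gave an adjusted p of 1 for each receptor gene, and 0 of the 14415 genes passed an adjusted p of 0.05 (0%). At an unadjusted p under 0.05 there were 131 genes in the whole table and 0 receptor genes. With the library number as a block, 29 genes passed the threshold, and no receptor gene was among these 29. In that fit 913 genes had an unadjusted p under 0.05, and *Fzd8* was among these 913. No label ties the numbers to pairs. An exact permutation test of 2 libraries against 2 cannot give a two-sided p below 0.333. The p-values measure the spread between these libraries, and a p that misses the threshold does not show equal expression. The width of the intervals differed among the receptors: the 95% interval of the difference ran from −0.38 to 0.37 for *Fzd1* but from −3.45 to 3.40 for *Fzd4*. These intervals came from the fit without the library number. With the number as a block, the SE was 0.12 for *Fzd1* and 0.17 for *Fzd4*, against 0.14 and 1.29 without it. The SE given after ± for a population difference is from the fit without the number, and so holds the gap between the numbers.

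**Figure D1:**
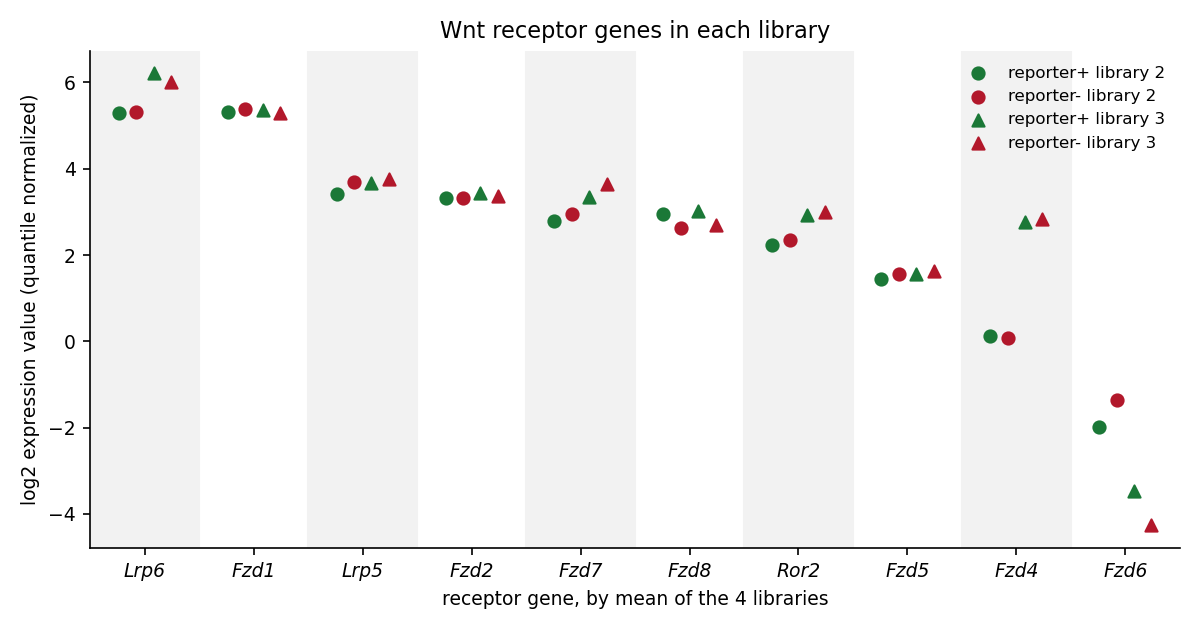
Log2 expression value (quantile normalized) of each Wnt receptor gene in the 4 libraries, with genes ordered by their mean and 1 point per library (circles, number 2; triangles, number 3; green, reporter+; red, reporter-). *Fzd4* lies at 0.12 and 0.09 in the libraries numbered 2 and at 2.75 and 2.83 in those numbered 3, whereas *Fzd1* stays between 5.29 and 5.39 in all of them.

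Among the Frizzled receptors, *Fzd1*, a receptor for several Wnt ligands, had the highest values. *Fzd1* (chr5:4753839-4758035 in GRCm38.p6, − strand, a single-exon gene) stood at 5.31 and 5.37 in the reporter+ libraries numbered 2 and 3 and at 5.39 and 5.29 in the reporter- libraries. The 4 values overlapped between populations and between numbers, and they lay between the percentiles 95.6 and 96.0 of the values in their library. The population difference was −0.00 ± 0.14 (SE, n = 2 libraries per population).

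*Fzd2*, a receptor used in both the β-catenin and the Wnt5a branches, was lower than *Fzd1* and nearly as even. *Fzd2* (chr11:102604396-102608058, + strand, 1 exon) had values of 3.31 and 3.44 in reporter+ and of 3.31 and 3.37 in reporter- cells. The difference between the populations was 0.03 ± 0.15, and the libraries of the populations overlapped. Both libraries numbered 3 were above both numbered 2, by 0.13 in reporter+ and by 0.06 in reporter- cells.

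*Fzd5*, a receptor known for its part in β-catenin signaling in the eye and the gut, was close to the middle of the table. *Fzd5* (chr1:64730558-64737751, − strand, 2 exons) had values of 1.44 and 1.57 in reporter+ and of 1.56 and 1.63 in reporter- cells, between the percentiles 49.5 and 52.4. The difference was −0.09 ± 0.20, with overlapping libraries. An antisense gene, *Gm38058*, overlaps *Fzd5*. The libraries were stranded, but whether the counting used the strand is not given in the sources used here.

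*Fzd7*, a receptor known from stem and progenitor cells of several tissues, had the most negative population difference of the 10 genes. *Fzd7* (chr1:59482424-59486955, + strand, 1 exon) had values of 2.78 and 3.34 in reporter+ and of 2.95 and 3.64 in reporter- cells. It was lower in reporter+ cells within each number, by 0.17 at number 2 and by 0.30 at number 3, but the populations overlapped because the libraries numbered 3 were higher in both. The mean difference was −0.23 ± 0.33, and with the number as a block the SE was 0.13.

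*Fzd8*, another receptor of the β-catenin branch, was the receptor gene whose reporter+ libraries both lay above both reporter- libraries. *Fzd8* (+ strand, 1 exon) had values of 2.95 and 3.02 in reporter+ cells and of 2.62 and 2.69 in reporter- cells. The reporter+ values were higher by 0.33 at number 2 and by 0.32 at number 3, so that the gap between populations was larger than the spread within either of them (SD 0.05 and 0.05). The mean difference was 0.33 ± 0.15 (1.25-fold), with a 95% interval from −0.07 to 0.73. limma without a block gave an unadjusted p of 0.088 and an adjusted p of 1. With the number as a block the SE was 0.13, the unadjusted p was under 0.05 and the limma adjusted p was 0.692. Across the table, 7.59% of genes had both reporter+ libraries above both reporter- libraries, beside 1 of the 10 receptor genes. *Fzd8* was not among the genes past the threshold under any setting tried.

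The genes whose pattern over the 4 libraries was most like that of *Fzd8* were found by the Euclidean distance of values centred on their own mean, among the 10223 genes whose mean was 0 or more. They were *Pold3*, at a distance of 0.061, *Mnda*, at 0.061, *Dnajc24*, at 0.075, *Uxs1*, at 0.093, and *Casp2*, at 0.094. Their population differences ran from 0.27 for *Dnajc24* to 0.30 for *Mnda*. The likeness rests on 4 libraries.

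*Lrp5*, a co-receptor of the β-catenin branch, was the receptor gene whose reporter+ libraries both lay below both reporter- libraries. *Lrp5* (chr19:3584828-3686564, − strand, 23 exons) had values of 3.41 and 3.67 in reporter+ cells and of 3.70 and 3.77 in reporter- cells. The populations were apart by 0.03 at their nearest libraries, 3.67 and 3.70, and the reporter+ libraries had an SD of 0.19. The mean difference was −0.19 ± 0.16 (0.874-fold), and 8.1% of all genes had both reporter+ libraries below both reporter- libraries. Without the reporter+ library numbered 2 the difference was −0.06, and without the one numbered 3 it was −0.33.

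*Lrp6*, the closest relative of LRP5, had the highest mean of the 10 genes. *Lrp6* (chr6:134446476-134566965, − strand, 23 exons) had values of 5.29 and 6.21 in reporter+ and of 5.31 and 6.01 in reporter- cells. The populations overlapped, with a difference of 0.10 ± 0.41 (SE 0.12 with the number as a block), whereas the numbers did not. *Lrp6* was −0.01 apart between the populations at number 2 and 0.21 apart at number 3.

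**Figure D2:**
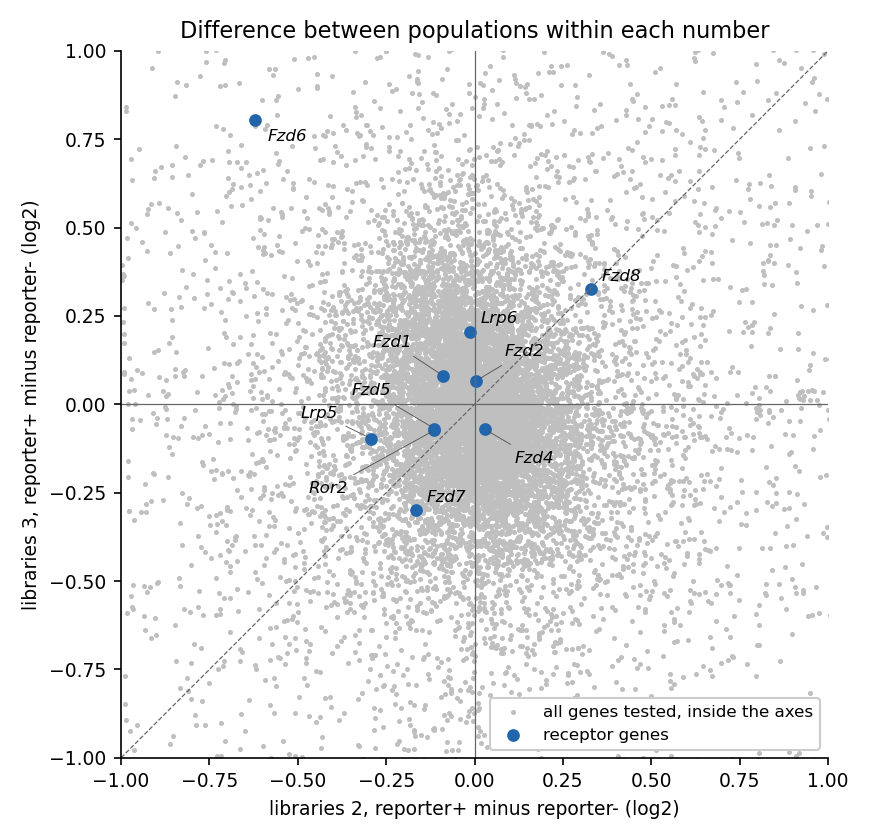
Difference between the populations (reporter+ minus reporter-, log2) at number 2 on the x axis and at number 3 on the y axis, for the receptor genes (blue) and all genes tested (gray); genes outside −1 to 1 are not shown, and the dashed line marks equal differences. *Fzd8* lies on the line at 0.33 and 0.32, whereas *Fzd6* has opposite signs, −0.62 and 0.80.

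Within the numbers, 6 receptor genes had a population difference of the same sign at number 2 and at number 3, and 4 (*Fzd1*, *Fzd4*, *Fzd6* and *Lrp6*) had opposite signs. Each such difference compares 1 library with 1 library and has no replicate check. Macrophage and endothelial markers are given beside these values, and none of them passed the test between the populations in limma (3 and 4 at an unadjusted p under 0.05, beside 131 of all 14415 genes). The mean of each of the 10 macrophage markers was higher in reporter+ cells (49.1% of all genes), and 6 of them lay above without overlap (7.59% of all genes). *Lyz2*, at 6.27 to 7.88, had the highest values among them. They had a summed linear level of 235 and 277 in the reporter+ and of 93.7 and 177 in the reporter- libraries and none of them blank. *Ptprc*, the gene of the CD45 protein that the sort selected against, had values of −1.28 and −0.39 in reporter+ and of −2.30 and −1.22 in reporter- cells. The mean of each of the 7 endothelial markers measured in each library was lower in reporter+ cells, 4 of them without overlap (8.1% of all genes), with sums of 3.89 and 3.35 against 5.09 and 6.47 and *Tie1* blank in 1 reporter+ library. *Pecam1*, the gene of CD31, had values of −4.68 and −4.79 against −1.99 and −1.11. *Egfl7*, with the highest value of the endothelial markers in each library, had a difference of −0.04, whereas *Cdh5*, *Emcn* and *Pecam1* had −4.26, −3.44 and −3.19. The sums of linear values give more weight to *Egfl7* than to each of these genes. The sums of 8 stromal markers were 1948 and 2571 in reporter+ and 1778 and 2249 in reporter- cells, and none of those markers was blank. Of these 8 markers, however, 6 had a lower mean in reporter+ cells (median difference −0.10), and *Col3a1*, at 9.37 to 10.8, had the highest values. The part of these cell types in the values of *Fzd8* and *Lrp5* was not tested.

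Between the numbers of the libraries, 5 receptor genes passed the test, a comparison added after the values were seen. *Fzd4*, *Fzd7*, *Lrp6* and *Ror2* were higher and *Fzd6* was lower in the libraries numbered 3. limma with the population and the number as terms called 11.5% of the 14415 genes higher and 9.79% lower in number 3, beside 4 and 1 of the 10 receptor genes. This test counts both libraries of a number as replicates, and where they came from 1 cell preparation its SE, intervals and p-values do not measure the spread between preparations. When the trend of the variance on the mean was left out of this model, 0 genes passed (3909 at an unadjusted p under 0.05) and the 5 receptor genes had adjusted p-values from 0.0536 for *Fzd4* to 0.126 for *Fzd7*. Without any test, 6 receptor genes had both libraries numbered 3 above both numbered 2 (36.4% of all genes) and 1 had both below (28.8%). The number difference was larger in size than the population difference for 8 of the 10 receptor genes, all but *Fzd8* and *Lrp5*, and for 75.7% of all genes.

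*Fzd4*, the receptor of the ligand norrin as well as of Wnt proteins, had the largest number difference of the 10 genes. *Fzd4* (chr7:89404355-89413134, + strand, 2 exons) had values of 0.12 and 2.75 in reporter+ and of 0.09 and 2.83 in reporter- cells. In both populations the libraries numbered 2 were the low ones and those numbered 3 the high ones, at the percentiles 34.7 and 34.9 of the values in their library against 71.0 and 72.2. The number difference was 2.64 in reporter+ and 2.74 in reporter- cells, with a mean of 2.69 ± 0.17 (SE; 95% interval 2.30 to 3.08; 6.45-fold) and a limma adjusted p of 2.74e-05. The population difference of *Fzd4* was −0.02 ± 1.29, an SE that holds the gap between the numbers, and within the numbers it was 0.03 and −0.07.

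*Fzd6*, a receptor best known from planar polarity in skin and hair, went the other way. *Fzd6* (chr15:39006034-39038188, + strand, 7 exons) had values of −1.98 and −3.46 in reporter+ and of −1.36 and −4.26 in reporter- cells. Both libraries numbered 3 were lower, by 1.48 in reporter+ and by 2.90 in reporter- cells, and the mean number difference was −2.19 ± 0.50 (4.57-fold lower in number 3, limma adjusted p 0.0146). *Fzd6* had the lowest values of the 10 genes, with percentiles from 12.6 to 25.6. With a pseudocount of 1 on the linear scale its number difference was −0.30 (adjusted p 0.0475), and with blank genes set to the lowest value of their library its adjusted p was 0.0872. An antisense gene, *Gm26704*, overlaps *Fzd6*.

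The number differences of *Fzd7*, *Lrp6* and *Ror2* were smaller and alike in both populations. *Fzd7* was higher in number 3 by 0.56 in reporter+ and by 0.70 in reporter- cells, with a mean of 0.63 ± 0.13 (1.55-fold, limma adjusted p 0.00854). *Lrp6* was higher by 0.92 and 0.70, with a mean of 0.81 ± 0.12 (1.75-fold, limma adjusted p 0.0021). *Ror2*, the Wnt5a receptor (chr13:53109312-53286124, − strand, 9 exons), had values of 2.23 and 2.93 in reporter+ and of 2.35 and 3.00 in reporter- cells. Both libraries numbered 3 were above both numbered 2, by 0.70 and 0.66, with a mean of 0.68 ± 0.13 (1.60-fold, limma adjusted p 0.00809). Its population difference was −0.09 ± 0.35 (SE 0.13 with the number as a block), with overlapping populations. The other 5 genes had number differences from −0.02 for *Fzd1* to 0.17 for *Lrp5*, with limma adjusted p-values from 0.372 to 0.928.

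**Figure D3:**
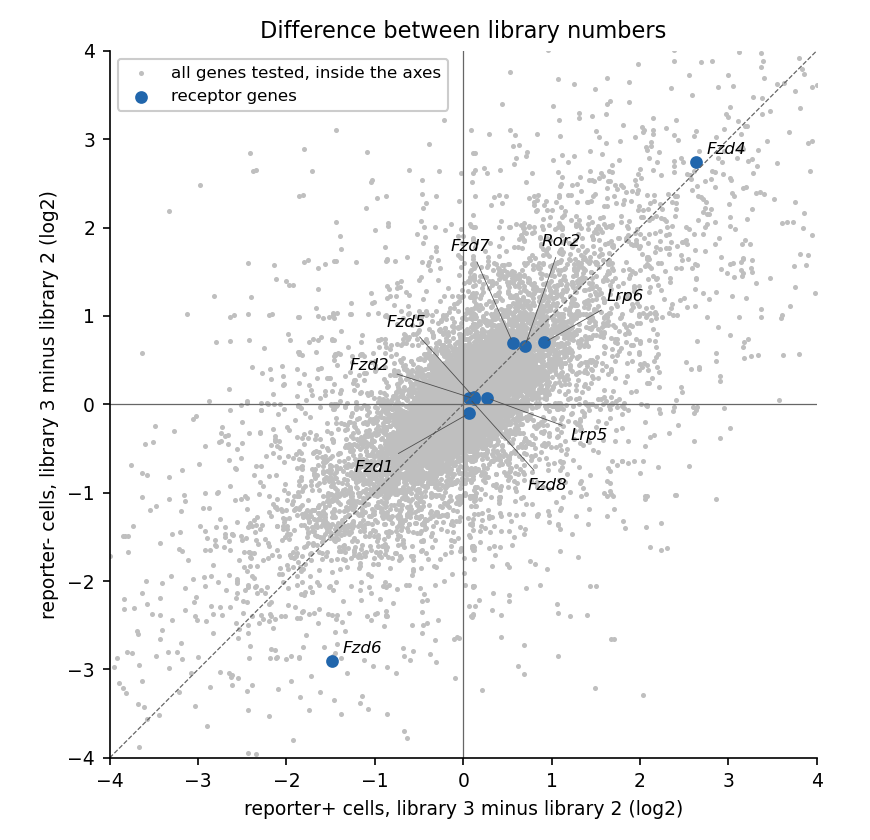
Difference between the numbers (library 3 minus library 2, log2) in reporter+ cells on the x axis and in reporter- cells on the y axis, for the receptor genes (blue) and all genes tested (gray); genes outside −4 to 4 are not shown, and the dashed line marks equal differences. *Fzd4* lies at 2.64 and 2.74 and *Fzd6* at −1.48 and −2.90, and 9 of the 10 receptor genes have the same sign in both populations, all but *Fzd1*.

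Marker genes also differed between the numbers. Among stromal markers, *Postn*, a matrix protein of the periosteum, had values of −1.13 and 2.04 in reporter+ and of 0.14 and 3.04 in reporter- cells, a number difference of 3.03 (limma adjusted p 2.74e-05). Of the 8 stromal markers, 3 were above and 5 below in number 3 without overlap (36.4% and 28.8% of all genes), with a median of −0.29. The test called *Postn* and *Col3a1* higher and *Prrx1* (−0.54), *Col1a2* (−0.54) and *Thy1* (−0.53) lower in number 3, beside 11.5% and 9.79% of all genes. Among chondrocyte markers, the cartilage collagen *Col2a1* had a number difference of −3.14, and the summed level of the 6 markers was 11.6 and 15.1 at number 2 against 2.88 and 5.16 at number 3, with 2 or 3 of the markers blank in each library. The test called 3 of the 3 chondrocyte markers tested lower in number 3. The sum of the macrophage markers at number 3 was above that at number 2 in both populations. Of these 10 markers, 5 were called higher and 0 lower (11.5% and 9.79% of all genes), and *Cd14* had a number difference of −0.44. Of the 7 endothelial markers tested, *Tek* (3.32, limma adjusted p 2.01e-04) was called higher and *Erg* (−3.03, adjusted p 2.14e-04) lower. The sums of the proliferation markers, 9.43 and 16.3 in reporter+ and 14.7 and 11.9 in reporter- cells, did not follow the numbers. The part of these cell types in the number differences of the receptor genes was not tested.

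The region before the start of the gene is shown for 3 receptor genes that were higher in number 3 and, for contrast, for *Fzd1*, which was nearly even in the 4 libraries. Each sequence holds 200 bases, from 250 to 51 bases before the RefSeq start, 5′ to 3′ on the strand of the gene in GRCm38.p6. For *Fzd7* and *Fzd1* the RefSeq start lies upstream of the GENCODE gene start given above, so that their windows lie further from that start. Capitals mark a TATA box (TATAAA), a GC box (GGGCGG) or a core of the TCF/LEF motif (CTTTGA or CTTTGT), each sought on both strands, and the marked motifs did not overlap. *Fzd4* was read from chr7:89404116-89404315 on the + strand, *Fzd7* from chr1:59481897-59482096 on the + strand, *Ror2* from chr13:53286175-53286374 on the - strand and *Fzd1* from chr5:4758267-4758466 on the - strand.
Fzd4: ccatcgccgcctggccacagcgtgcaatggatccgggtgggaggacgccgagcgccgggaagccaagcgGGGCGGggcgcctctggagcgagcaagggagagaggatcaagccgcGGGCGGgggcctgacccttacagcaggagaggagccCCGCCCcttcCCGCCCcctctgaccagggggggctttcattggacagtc
Fzd7: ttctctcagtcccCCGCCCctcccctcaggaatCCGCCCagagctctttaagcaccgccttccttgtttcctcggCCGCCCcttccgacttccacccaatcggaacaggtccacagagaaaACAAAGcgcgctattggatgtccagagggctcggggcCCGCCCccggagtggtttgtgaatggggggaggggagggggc
Ror2: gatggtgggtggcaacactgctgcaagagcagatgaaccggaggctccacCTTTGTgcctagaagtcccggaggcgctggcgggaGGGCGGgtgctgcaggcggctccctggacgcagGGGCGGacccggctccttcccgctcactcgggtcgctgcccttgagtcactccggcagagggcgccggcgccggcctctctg
Fzd1: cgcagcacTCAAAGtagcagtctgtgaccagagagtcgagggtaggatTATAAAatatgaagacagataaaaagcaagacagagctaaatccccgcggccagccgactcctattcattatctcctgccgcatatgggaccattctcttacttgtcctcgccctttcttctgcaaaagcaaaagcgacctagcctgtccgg

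Among 32851 such windows of the RefSeq table, 9.14% held a TATA box, 24.6% a GC box and 23.4% a TCF/LEF core in these letters, and the median GC content was 51.5%. The *Fzd4* window had a GC content of 71.5%, with 4 GC boxes and none of the other letters. The *Fzd7* window (63.5% GC) held 4 GC boxes and 1 TCF/LEF core, and the *Ror2* window (70.5% GC) held 2 and 1. The *Fzd1* window (49% GC) held 1 TATA box, 1 TCF/LEF core and 0 GC boxes. The window of *Fzd5*, whose number difference was 0.10, had a GC content of 75% and 7 GC boxes. A match is a description of letters and not a site of binding. *Fzd2*, *Fzd6*, *Fzd8*, *Lrp5* and *Lrp6* were not matched.

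The order of the receptor genes by mean level ran from *Lrp6* to *Fzd6*. *Lrp6* and *Fzd1* were the highest, with means over the 4 libraries of 5.70 and 5.34. Their libraries overlapped with each other and lay above those of all other receptor genes. *Lrp5* (3.64), *Fzd2* (3.36), *Fzd7* (3.18), *Fzd8* (2.82) and *Ror2* (2.63) followed, and each of them overlapped with its neighbor in this order. *Fzd5* (1.55) lay below *Ror2* in all libraries. *Fzd4* (1.45) ran from 0.09 to 2.83 and so overlapped with *Fzd5* and, through its libraries numbered 3, with *Ror2*, *Fzd8* and *Fzd7*. *Fzd6* (−2.77) lay below all of them. Whether the linear unit is per length is not given in the sources used here. Over 854 genes with a value in 1 library only, the log2 value fell with the log2 exon length with a slope of −0.69 (r = −0.635 across genes, which are not independent replicates), where values at the limit of detection that are not divided by length would give a slope of 0. Over 13871 genes measured in each library, the receptor genes among them, the slope was 0.02. The order of the levels between genes holds only on this scale.

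Other Wnt receptors and co-receptors had 10 genes, of which 0 passed the test between the populations, 3 were higher and 7 were lower in reporter+ cells (median −0.06). *Ryk*, a Wnt receptor with an inactive kinase domain, was the highest of them with a mean of 4.88 and a population difference of −0.06 ± 0.21. *Ptk7*, a planar polarity co-receptor, had a mean of 4.67 and the most negative difference among those whose mean was 0 or more, −0.19 ± 0.25. *Lrp4*, which binds agrin and sclerostin, had values of 3.44 and 4.79 in reporter+ and of 3.44 and 4.92 in reporter- cells, a number difference of 1.42 (limma adjusted p 9.74e-05). Its libraries numbered 3 were both higher, as with *Lrp6*. *Ror1*, the paralog of *Ror2*, had values of 0.02 and 0.57 in reporter+ and of −0.59 and 0.29 in reporter- cells and the most positive population difference, 0.45 ± 0.44, with overlapping populations.

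*Tspan12*, a tetraspanin that assists FZD4 in norrin signaling, had a mean of 0.75 and a number difference of 0.47 (limma adjusted p 0.143), beside 2.69 for *Fzd4*. *Adgra2* and *Reck*, which together form a co-receptor for Wnt7 ligands, had means of 2.52 and 2.90. Their number differences were 0.84 (limma adjusted p 0.00321) and −0.28 (adjusted p 0.165). *Fzd3*, *Fzd9* and *Fzd10* were low, with means of −1.60, −2.58 and −5.51. *Fzd10* was the gene of this list whose reporter+ libraries (−7.06 and −5.97) both lay below its reporter- libraries (−5.37 and −3.63). Its difference was −2.02 ± 0.94 (limma adjusted p 1). Across the table, 8.1% of genes lay below without overlap, beside 1 of these 10 genes. In all, 3 of the 10 genes passed the test between the numbers, each higher in number 3.

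**Figure D4:**
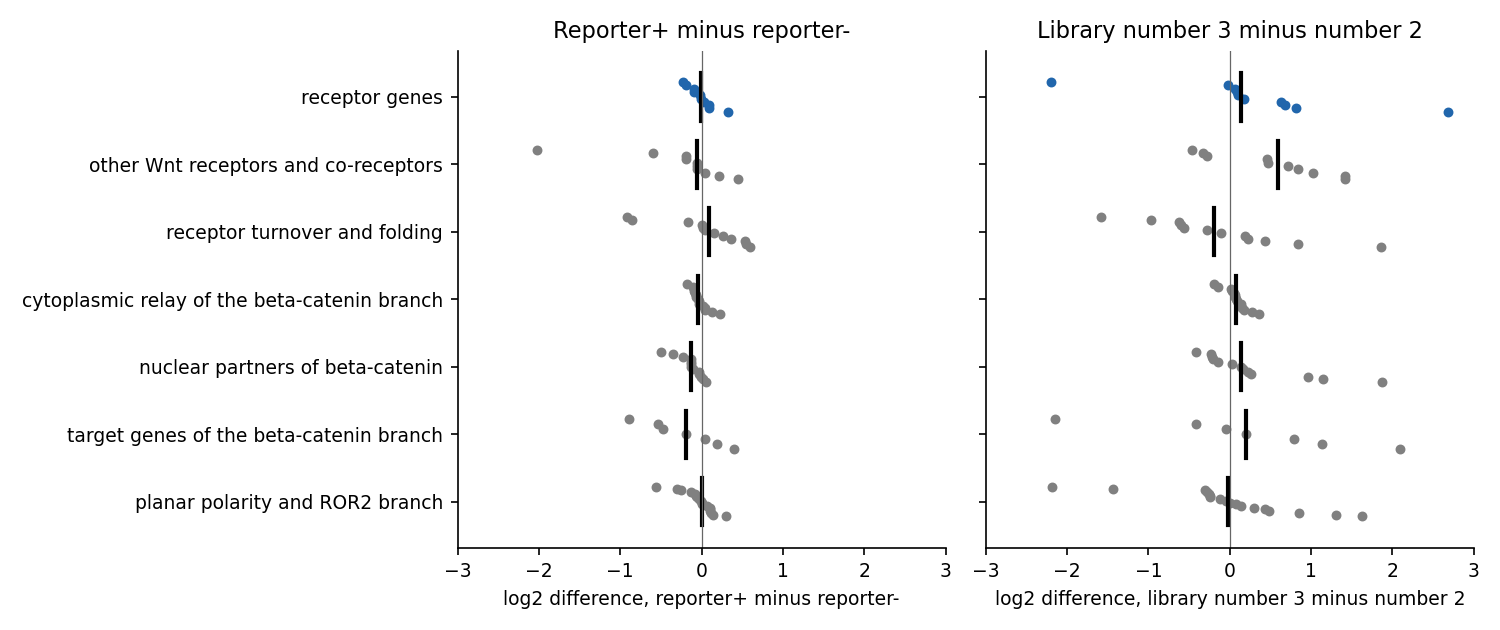
Log2 difference of each gene of the receptor set (blue) and of 6 other Wnt pathway lists (gray), reporter+ minus reporter- on the left and library number 3 minus number 2 on the right, with 1 point per gene and a black bar at the median of the list. The receptor genes lie between −0.23 and 0.33 on the left and between −2.19 and 2.69 on the right.

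Among genes of receptor turnover and folding, 12 of 14 could be tested, 9 were higher and 3 lower in reporter+ cells (median 0.09), and 0 passed the test. The list holds the ubiquitin ligase *Znrf3*, which removes Frizzled proteins from the surface, and R-spondins and LGR receptors, which hold it back. *Rspo3*, an R-spondin, had values of 1.86 and 1.94 in reporter+ and of 1.22 and 1.52 in reporter- cells, which did not overlap. Its difference was 0.53 ± 0.21, with a limma adjusted p of 1. With *Rspo1* (0.20 and −0.34 against −0.43 and −0.43), 2 of the 12 genes lay above without overlap and 0 below. Across the table, 7.59% of genes lay above and 8.1% below. *Rspo2*, a related R-spondin, had the most negative difference among those whose mean was 0 or more, −0.85 ± 0.85, with values of 2.52 and 0.16 against 2.59 and 1.79. The libraries of *Rspo2* overlapped between the populations. Between the numbers, *Lgr6* (1.87) and *Apcdd1* (0.84) were higher and *Rspo2* (−1.58), *Kremen1* (−0.60) and *Lgr4* (−0.56) were lower in number 3, with limma adjusted p-values from 0.00132 for *Lgr6* to 0.0281 for *Apcdd1*. *Mesdc2*, the chaperone that folds LRP5 and LRP6, had a mean of 4.38 and differences of 0.15 ± 0.17 between the populations and 0.22 between the numbers.

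The cytoplasmic relay of the β-catenin branch had the narrowest range of differences of these 6 lists, between the populations and between the numbers. Of its 15 genes, 5 were higher and 10 lower in reporter+ cells (median −0.05), 0 passed the test between the populations and 0 between the numbers. Without overlap, 0 of them lay above and 2 below (7.59% and 8.1% of all genes). The population differences ran from −0.18 ± 0.15 for the kinase *Gsk3a* to 0.23 ± 0.26 for the tankyrase *Tnks2*. β-catenin itself (*Ctnnb1*) had values of 6.60 and 6.84 in reporter+ and of 6.65 and 6.75 in reporter- cells, with overlapping populations.

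Of 13 nuclear partners of β-catenin, 2 were higher and 11 lower in reporter+ cells (median −0.13), and 0 passed the test. The differences of those whose mean was 0 or more ran from −0.50 ± 0.51 for *Tcf7l2*, a TCF transcription factor, to 0.05 ± 0.23 for the co-repressor *Tle2*. None of the 13 genes had populations that did not overlap (7.59% of all genes above and 8.1% below). Between the numbers, *Tcf7l2* (0.96, limma adjusted p 0.00738) and *Tle4* (1.144, adjusted p 0.00486) were higher in number 3.

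Of 9 target genes of the β-catenin branch, 7 could be tested, 3 were higher and 4 lower in reporter+ cells (median −0.19), and 0 passed the test. *Ccnd1*, which encodes cyclin D1 and also responds to many other signals, had values of 4.95 and 4.72 in reporter+ and of 6.03 and 5.43 in reporter- cells. The populations did not overlap, and the difference was −0.90 ± 0.25 with a limma adjusted p of 1. *Notum* had both reporter+ libraries (0.997 and 0.788) above both reporter- libraries (0.648 and 0.755), with a difference of 0.19 ± 0.25. Across the table, 7.59% of genes lay above and 8.1% below without overlap, beside 1 and 1 of these 7 genes. *Bambi* had the most positive difference, 0.40 ± 0.46, with overlapping populations. *Axin2*, a feedback inhibitor often used as a readout of this branch, had values of −2.26 and −0.995 in reporter+ and of −1.94 and −0.94 in reporter- cells. Its difference was −0.19 ± 0.66 between the populations and 1.13 between the numbers (limma adjusted p 0.0448). The other feedback genes went in both directions between the numbers, *Nkd1* by 2.09 and *Nkd2* by −2.15. With *Bambi* (0.79, limma adjusted p 0.0391), 3 of the 7 genes were called higher and 1 lower in number 3.

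Of 18 genes of the planar polarity and ROR2 branch, 9 were higher and 9 lower in reporter+ cells (median −0.00), and 0 passed the test. Without overlap, 1 of them lay above and 3 below (7.59% and 8.1% of all genes). Among those whose mean was 0 or more, the protocadherin *Dchs1* had the most positive difference, 0.29 ± 0.81, and the kinase *Rock2* the most negative, −0.26 ± 0.20. *Dchs1* was also higher in number 3, by 1.63 (limma adjusted p 9.13e-04), as were *Vangl2* (1.30, adjusted p 0.00789) and *Prickle1* (0.86, adjusted p 0.0105), core genes of planar polarity. The number calls named in these lists were chosen after their values were seen. They stand beside the same background as those of the receptor genes, 11.5% of genes higher and 9.79% lower, and were not kept when the trend was left out of the model.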

How the data were processed

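Total RNA of 2 PDGFRα reporter+ and 2 PDGFRα reporter- libraries was prepared by stranded Illumina paired-end protocols. The submitters' processing notes name bcl2fastq 2.17.1.14, Partek 7.0 and GRCm38.p6. The authors deposited 1 quantile normalized log2 value per gene symbol and library, with a blank where there was no signal. Aligner, counting, annotation and depth are not given in the sources used here. All 4 columns matched a population (0 columns of no mapped sample). The receptor genes and lists were chosen with earlier results of these data known.

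For the 14415 genes measured in each library, the test was that of limma 3.58.1 under R 4.3.3 (lmFit, eBayes with trend, two-sided, no block, Benjamini-Hochberg, threshold 0.05). Errors with ± are SE. The comparison of library numbers was added after seeing the data. Named genes were all receptor genes, all other Wnt receptors, the extremes of each list at a mean of at least 0, and 5 genes most like the receptor gene with the largest difference. Other genes named in the text were chosen after their values were seen. Positions came from GENCODE, promoters from RefSeq. Summaries used Python 3.11.15, pandas 2.3.3, numpy 2.4.6 and matplotlib 3.10.9. Alternatives covered the block, moderation, filters, pseudocount, centring and each library left out. *Mesd* is listed as *Mesdc2*.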

Additional observations from a re-analysis of the deposited data

How the results depend on the processing

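Over 109 alternative values of the receptor genes' population differences, 0 passed the threshold (adjusted p from 0.692 to 1) and 14 changed sign, all but 1 of them when a library was left out. Without 1 library at a time, the log2 difference ran from −0.056 to 0.048 for *Fzd1*, from −0.029 to 0.097 for *Fzd2*, from −1.39 to 1.35 for *Fzd4*, from −1.36 to 1.54 for *Fzd6*, from −0.58 to 0.12 for *Fzd7*, from −0.36 to 0.56 for *Lrp6* and from −0.44 to 0.25 for *Ror2*. Such a fit has 1 library on 1 side, which is assumed to vary like the others. *Fzd5* (−0.15 to −0.03), *Fzd8* (0.29 to 0.36) and *Lrp5* (−0.33 to −0.06) kept their sign, and the median of the 10 genes ran from −0.24 to 0.09. With a pseudocount of 1 on the linear scale the difference of *Fzd6* was −0.048, and the cause was not tested. The count of all genes past the threshold stayed at 0 under every setting but the replicate block.

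With the library number as a replicate block, 29 genes passed the threshold, and no receptor gene was among these 29. *Fzd8* was among the 913 genes at an unadjusted p under 0.05 in that limma fit, with an adjusted p of 0.692. Deviations from the population mean had a correlation of 0.681 over 14415 genes between libraries of the same number, but with 2 pairs and no label for the pairing the libraries share only a number. For the comparison of the numbers, 3065 genes passed, against 0 without the trend, 1256 with blanks set to the lowest value of the library and 1825 with the pseudocount, and the cause was not tested. The unknown unit and depth limit what can be said of low values such as those of *Fzd6*.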
